A study of Saccharomyces cerevisiae with 70 samples.

Results

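The genes of glucose uptake, glycolysis, ethanol fermentation and their side branches to acetate and glycerol were followed in budding yeast exposed to hydrogen peroxide or to menadione. The 39 members were taken by gene symbol from a list of 7 hexose transporters, 3 glucose-phosphorylating enzymes, 6 genes of upper and 10 of lower glycolysis, 9 genes of fermentation and acetate formation, 2 glycerol-3-phosphate dehydrogenases and 2 gluconeogenic enzymes. All 39 were found on each of the 3 array designs, among 5553 genes on the arrays of each first-series course and 5577 genes on those of the second series. Measured values played no part in the rule, although the list was chosen with earlier results of these data known.

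The study used 70 two-colour arrays in 4 time courses. Peroxide I held 23 arrays at 21 times from 0 to 275 min of alpha factor synchronised cells with 0.24 mM hydrogen peroxide. Peroxide II held 17 arrays from 0 to 180 min of strain DBY8724 after release from G1 arrest, with hydrogen peroxide at a dose not given in the labels. Menadione I held 14 arrays from 0 to 210 min with 2 mM menadione, a quinone that generates superoxide inside cells. Its labels give the density of the sampled culture, which was lowest at 0 and 14 min and highest at 170 and 210 min, and do not mention synchrony. Menadione II held 16 arrays from 0 to 140 min of strain DBY8724 after release from G1 arrest, with menadione at a dose not given in the labels. No course without an oxidant was analysed here and the labels give no time of addition, so the oxidant, progress through the cell cycle and growth of the culture cannot be told apart in a change over time. RNA came from whole cultures, in which a changed share of cells and a changed amount of RNA per cell cannot be told apart.

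Yeast takes up glucose through a family of hexose transporters of differing affinity, phosphorylates it with 1 of 3 kinases and converts it through glycolysis to pyruvate, most of which is fermented to ethanol when glucose is plentiful. Many steps have isozyme pairs in which one gene is used during growth on glucose and the other is repressed by glucose or induced by stress. Oxidants are known to inactivate glyceraldehyde-3-phosphate dehydrogenase, and yeast under oxidative stress depends on NADPH from the pentose phosphate branch, which leaves glycolysis after glucose is phosphorylated.

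Each value is the log2 ratio of the Cy5-labelled sampled culture to a Cy3-labelled asynchronous culture, averaged over the probes of a gene and centred on the median gene of its array. It ranks times for 1 gene and does not rank genes by abundance. The log base and the direction are assumptions, and genes of the mating pheromone response averaged above 0 at 0 min in all 4 courses, between 0.907 and 1.54. Each course was 1 culture, so the arrays of a time window stood in for replicates: 22 to 50, 51 to 90 and after 90 min were each compared in limma with the initial 21 min within a course, with Benjamini-Hochberg adjustment over all genes and a threshold of 0.05. These p-values measure only the spread between time points. The repeated arrays at 20 and 63 min of peroxide I were averaged, and the first array at 63 min correlated at -0.303 with the repeat at 20 min, the lowest value of the series. The 3 arrays at 14, 21 and 28 min of peroxide II were scanned on another day than the other 14, and those at 14 and 21 min are part of the baseline of that course.

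Of the 39 genes, 16 passed the test in at least 1 window of 1 course. The same pooled count was not made over all genes, so members and all genes are compared window by window below. HXK1, GPD1 and TDH1 rose in both peroxide courses at 51 to 90 min, and HXK1 also rose in menadione II. In peroxide II none of these rises passed with the scan day as a covariate, as given below. At 51 to 90 min of peroxide I, 5 of 39 members rose and 2 fell, against 15.3% of all genes called (6.54% up and 8.72% down), and the arrays of 6 members did not overlap between windows, as did those of 22.4% of all genes. At 51 to 90 min of peroxide II, 5 rose and 2 fell against 14.0% of all genes (8.99% up and 5.04% down), and 11 members did not overlap against 24.4%. In menadione I 1 member rose against 1.91% of all genes (1.22% up, 0.684% down) and 5 did not overlap against 15.0%. In menadione II 2 rose and 2 fell against 5.04% of all genes (2.17% up, 2.87% down) and 6 did not overlap against 11.3%. These shares of members lay within a few genes of the shares of all genes.

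At 22 to 50 min 1 member rose in peroxide I against 0.775% of all genes called (0.505% up, 0.27% down), and 5 did not overlap against 14.3%. In peroxide II 2 rose against 3.94% (2.76% up, 1.18% down), and 4 did not overlap against 8.34%. None was called in menadione I, where 38 members were tested and 0.0% of all genes were called, or in menadione II (0.0%). In these courses 7 and 3 members did not overlap, against 19.1% and 3.54% of all genes. Unadjusted limma p was under 0.05 for 0 of 38 members of menadione I, beside 174 of 5498 genes, and for 4 of 39 members of menadione II, beside 444 of 5538 genes.

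After 90 min no member passed in peroxide I, where limma called 0.108% of all genes (0.0721% up, 0.036% down), and 8 members had an unadjusted p under 0.05, beside 423 of 5551 genes. There 5 members did not overlap against 1.93% of all genes. In peroxide II no member passed against 0.634% of all genes (0.507% up, 0.127% down), with an unadjusted p under 0.05 for 8 members beside 630 of 5520 genes, and 5 did not overlap against 6.79%. In menadione I 1 member rose against 1.31% (1.1% up, 0.216% down) and 4 did not overlap against 10.2%. In menadione II 2 rose and 2 fell against 2.89% (1.21% up, 1.68% down) and 11 did not overlap against 12.7%. The median change of the 39 members after 90 min was 0.24 and 0.46 in the first and second peroxide course, -0.23 in menadione I and -0.13 in menadione II, and the medians over all genes tested were 0.03, 0.05, 0.01 and -0.01 in the same order.

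**Figure D1:**
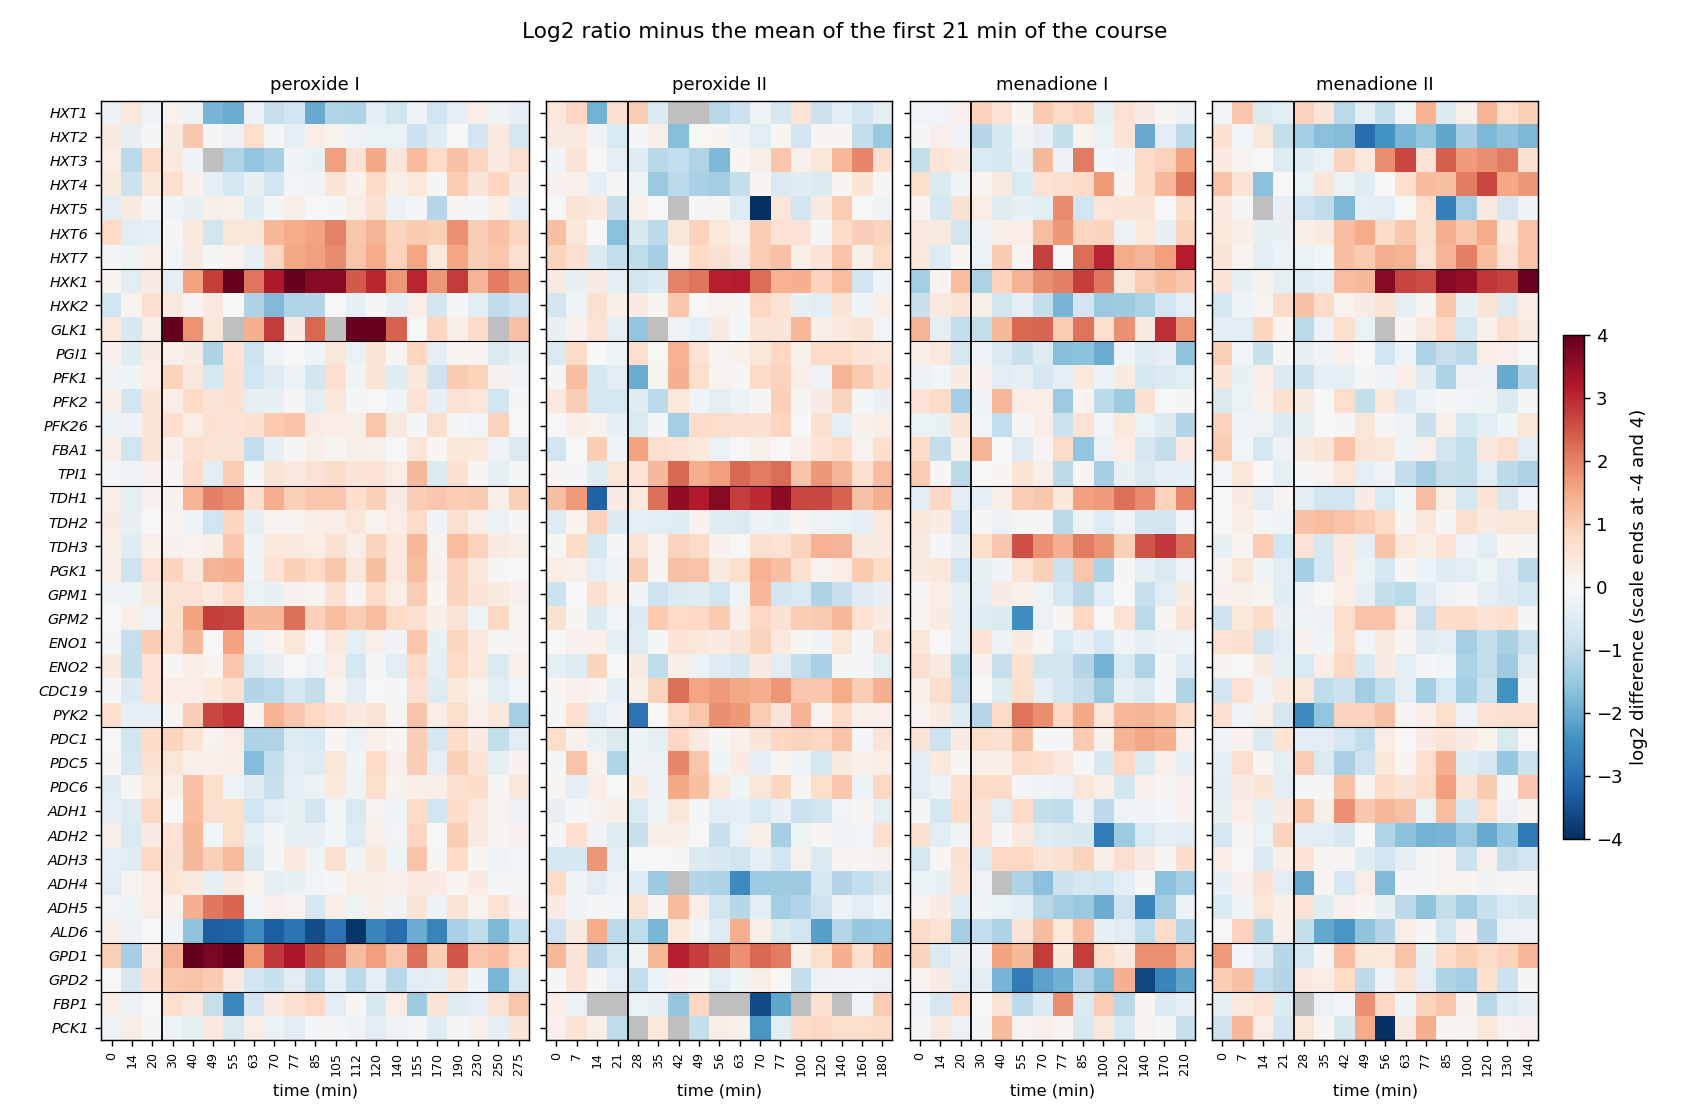
Log2 ratio of each of the 39 members minus its mean over the first 21 min, by time (min, one column per time) in the 4 courses. The vertical line ends the first 21 min, horizontal lines separate roles, and grey marks a missing value. HXK1 and GPD1 are the rows with long runs of red in the peroxide courses, ALD6 is blue from 40 min on in peroxide I, and TDH1 stays red from 35 min on in peroxide II. The TDH1 mean subtracted in peroxide II includes its array at 14 min, at -4.63, far below the other early arrays.

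Among the hexose transporters, HXT2 fell and HXT3 and HXT4 rose in menadione II, and HXT6 rose in peroxide I. HXT2, a transporter induced at low glucose, had log2 ratios of -0.82, -0.25, 0.00 and -0.52 at 56, 63, 77 and 85 min of menadione II, against 2.18, 1.46, 2.01 and 0.62 in its first 21 min. All arrays of the later window lay below the lowest early one. The gene fell by 1.96 ± 0.43 (SE, n = 4 arrays each; limma adjusted p = 0.00629), a 3.9-fold lower ratio, and by 1.62 ± 0.43 after 90 min (limma adjusted p = 0.034). The later fall did not pass when any array of either window but that at 21 min was left out, with changes of -1.73 to -1.42. Already at 22 to 50 min its change was -1.95, with a limma adjusted p of 0.0983. Its change at 51 to 90 min was 0.07, -0.11 and -0.32 in peroxide I, peroxide II and menadione I, none of them called.

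HXT4, which carries glucose with high affinity, rose late in menadione II. Its ratios were 1.5, 2.12, 0.98 and 1.17 at 100, 120, 130 and 140 min, against 0.57, -0.01, -2.23 and -0.58 in the first 21 min. The groups did not overlap, and the array at 14 min was the lowest of the course. The rise of 2.00 ± 0.44 (SE, n = 4 each; limma adjusted p = 0.00962) was 1.45 with an adjusted p of 0.063 without that array. HXT3, a low-affinity transporter, had 0.28, 1.11, -0.99 and 0.83 at 56, 63, 77 and 85 min of menadione II, against -1.18, -1.42, -1.58 and -2.08 in the first 21 min. Every later array lay above every early one, with that of 77 min closest to them. HXT3 rose by 1.87 ± 0.49 (SE, n = 4 each; limma adjusted p = 0.0214). The change was 1.21 with other window edges (limma adjusted p = 0.277), and it did not pass without the array at 21, 63 or 85 min. HXT3 had a change after 90 min of 1.58 with a limma adjusted p of 0.0683.

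HXT6 and HXT7 encode nearly identical high-affinity carriers and lie side by side on chromosome IV, so a spot of one may also hold RNA of the other. HXT6 rose by 1.07 ± 0.35 at 51 to 90 min of peroxide I (SE, 5 and 3 arrays; limma adjusted p = 0.0397), with later ratios of -0.26, -0.24, 0.61, 0.76 and 0.89 against 0.07, -1.16 and -1.06 early. The windows overlapped, since the array at 0 min was above those at 55 and 63 min. HXT6 did not pass without the array at 14, 20, 70, 77 or 85 min, and its change was 0.43 with other window edges. The 2 genes differed from each other by a median of 0.25 over the 21 times of peroxide I and by 0.69, 0.78 and 0.38 in peroxide II, menadione I and menadione II. HXT7 had changes of 1.19 and 1.24 at 51 to 90 and after 90 min of menadione II with no overlap, where 11.3% and 12.7% of all genes did not overlap, and limma adjusted p-values of 0.127 and 0.13. HXT1, a low-affinity transporter used at high glucose, had a change of -1.19 at 51 to 90 min of peroxide I (limma adjusted p = 0.0703). HXT5, linked to slow growth, was called in no window. Its array at 70 min of peroxide II, at -4.63, stood far below the other arrays of that course, which ran from -1.01 to 0.90.

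Of the 3 genes of glucose phosphorylation, HXK1 rose in 3 of the 4 courses. HXK1, the hexokinase that glucose represses, was highest in the window of 51 to 90 min in peroxide I, peroxide II and menadione I and stayed high in menadione II. In peroxide I its ratios were 3.96, 1.95, 3.01, 4.47 and 3.47 at 55, 63, 70, 77 and 85 min, against -0.07, -0.60 and 0.14 in the first 21 min. The windows were far apart, with no overlap. HXK1 rose by 3.55 ± 0.60 (SE, 5 and 3 arrays; limma adjusted p = 0.000341), an 11.7-fold higher ratio. In peroxide II its ratios were 4.49, 4.51, 3.60 and 2.75 at 56, 63, 70 and 77 min, against 1.73, 1.09, 1.71 and 0.97 early, again without overlap. The rise there was 2.46 ± 0.58 (SE, n = 4 each; limma adjusted p = 0.00497). With the scan day as a covariate it was 2.03 (limma adjusted p = 0.0726), and without the 3 arrays of the other scan day 2.43 (limma adjusted p = 0.0292).

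In menadione I HXK1 had 1.80, 2.25, 2.42 and 3.17 at 55, 70, 77 and 85 min, against -0.98, 0.52 and 1.65 in the first 21 min. All later arrays were higher, although the array at 20 min lay close to that at 55 min. The change of 2.02 ± 0.62 (SE, 4 and 3 arrays) did not pass, with a limma adjusted p of 0.111. One of the 3 HXK1 probes on that array design stood apart, with a baseline of 2.72 and a change of 0.68, while the other 2 changed by 2.61 and 3.04. With the median over probes the change was 2.40 and passed (limma adjusted p = 0.0282). In menadione II the ratios were 3.79, 2.80, 2.72 and 3.78 at 56, 63, 77 and 85 min and 3.63, 2.98, 2.84 and 4.02 at 100, 120, 130 and 140 min, against 0.63, -0.20, 0.29 and -0.29 in the first 21 min. Both later windows lay wholly above the first. HXK1 rose by 3.17 ± 0.58 and by 3.26 ± 0.58 in them (SE, n = 4 each; limma adjusted p = 0.00206 and 0.00172), 8.99-fold and 9.58-fold.

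After 90 min HXK1 was called in menadione II alone. Peroxide II arrays read 2.80, 2.29, 2.62, 0.59 and 1.16 at 100, 120, 140, 160 and 180 min. Those at 100, 120 and 140 min lay above its baseline and those at 160 and 180 min did not. The change over the whole window was 0.52 (limma adjusted p = 0.785). Menadione II had no array after 140 min. The difference of the changes, peroxide II minus menadione II, was -2.74 ± 0.81 (SE), and it did not pass with a limma adjusted p of 0.0852. In the first series HXK1 had a change of 2.36 in peroxide I (lowest, median and highest array 1.17, 2.09 and 3.48) and 1.18 in menadione I, neither of them called (limma adjusted p = 0.0873 and 0.383).

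HXK2, the main hexokinase during growth on glucose, fell in peroxide I at 51 to 90 min and was called in no other window. Its ratios were 0.09, -1.10, -1.64, -1.07 and -1.04, against -0.68, 0.26 and 0.78 in the first 21 min, and the array at 55 min lay inside the early range. The fall of 1.07 ± 0.35 (SE, 5 and 3 arrays; limma adjusted p = 0.042) had adjusted p-values of 0.0561 with the first arrays of the repeated pairs alone and 0.0568 with the repeats alone, and was -0.43 with other window edges. It did not pass without the array at 14, 20, 63, 70, 77 or 85 min. Its changes at 51 to 90 min were 0.38 in peroxide II, -0.98 in menadione I and 0.36 in menadione II. The 3 HXK2 probes of menadione I disagreed there, with changes of -2.58, -0.58 and 0.06 from baselines of 2.34, -0.05 and -0.13. GLK1, the glucokinase, was called in no window. It was erratic in peroxide I, where it read 4.03 at 30 min, 4.45 at 112 min and 5.17 at 120 min, and between -0.95 and 2.50 at the other times with a value.

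Set against HXK2 on the same arrays, HXK1 gave the only isozyme difference called in all 4 courses at 51 to 90 min. The difference HXK1 minus HXK2 was 3.86, 3.06, 4.65, 5.55 and 4.51 in peroxide I, against 0.61, -0.87 and -0.64 in the first 21 min. It changed by 4.63 ± 0.56 (SE; limma adjusted p = 3.025e-05), by 2.08 ± 0.68 in peroxide II (limma adjusted p = 0.0382), by 3.00 ± 0.69 in menadione I (limma adjusted p = 0.0297) and by 2.81 ± 0.68 in menadione II (limma adjusted p = 0.0125). In peroxide II the later arrays at 4.87, 4.95, 3.26 and 2.69 overlapped the early ones at 2.95, 1.71, 1.58 and 1.21, and the change was 1.61 (limma adjusted p = 0.261) without the 3 arrays of the other scan day. In menadione II the difference read 4.08, 3.99, 3.44 and 3.49, against 2.16, 0.82, 1.00 and -0.22 early, with no overlap. With other window edges these shifts had adjusted p-values of 0.0506 in peroxide II, 0.104 in menadione I and 0.0974 in menadione II. After 90 min it was still shifted by 2.71 ± 0.51 in peroxide I (limma adjusted p = 0.0261) and by 3.28 ± 0.68 in menadione II (limma adjusted p = 0.00587). Without single arrays the shift lost its call in menadione I in 6 of 7 cases at 51 to 90 min, in peroxide II in 5 of 8, in menadione II in 1 (that at 21 min, 2.43) and in peroxide I after 90 min in 4 (those at 14, 20, 120 and 190 min). The shift in menadione I also averages over the disagreeing probes of HXK1 and of HXK2 given above.

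**Figure D2:**
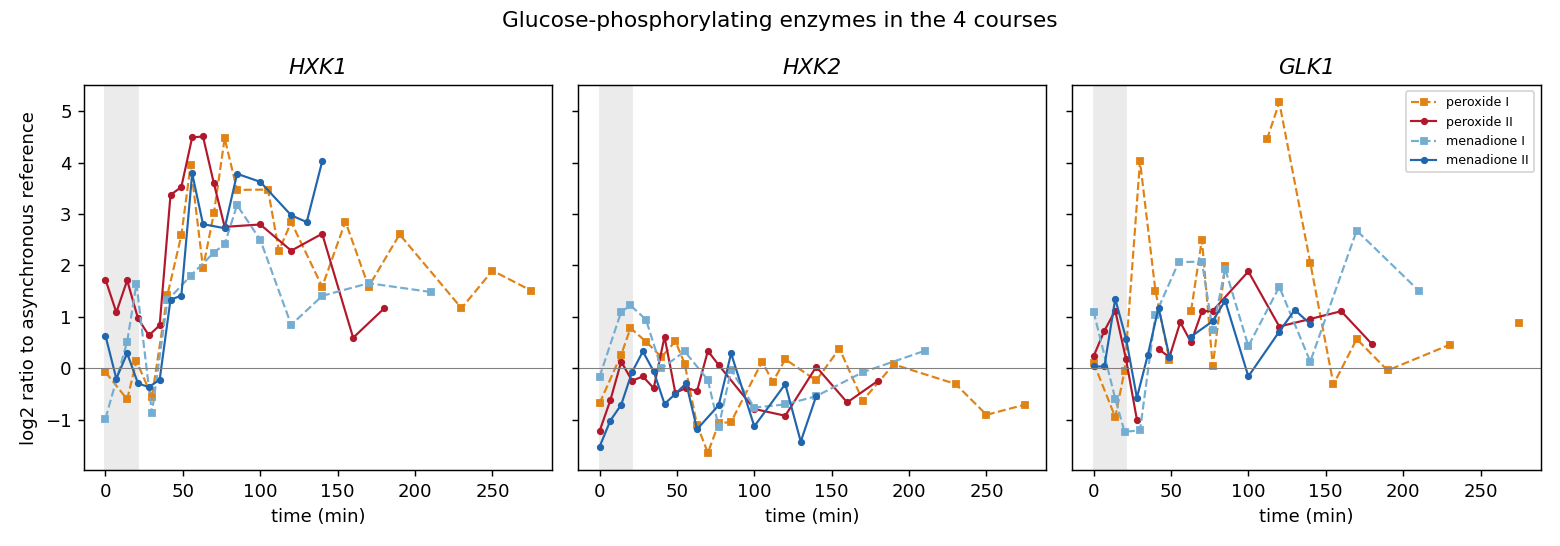
Log2 ratio to the asynchronous reference against time (min) for HXK1, HXK2 and GLK1, one line per course with peroxide in warm and menadione in cool colours, with the first 21 min in grey. HXK1 lies above its early arrays at 51 to 90 min in all 4 courses, although its change in menadione I did not pass, and after 90 min it reads 2.84 to 4.02 in menadione II, while HXK2 does not exceed 1.22 in any course.

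In upper glycolysis TPI1, triose phosphate isomerase, was the only one of 6 genes called in any window. In peroxide II it read 0.84, 1.47, 1.26 and 1.42 at 56, 63, 70 and 77 min, against -0.73, -0.90, -1.30 and -0.35 in the first 21 min. No array of one window came near the other. TPI1 rose by 2.07 ± 0.34 (SE, n = 4 each; limma adjusted p = 0.000197), a 4.2-fold higher ratio, and had already risen by 1.41 ± 0.34 at 22 to 50 min (limma adjusted p = 0.0156). That earlier rise was 1.11 (limma adjusted p = 0.114) without the array at 42 min, and did not pass without that at 14 or 49 min or with other window edges (limma adjusted p = 0.112). After 90 min its arrays read 0.33, 0.90, 0.54, -0.16 and 0.41, still above the baseline, with a change of 1.22 (limma adjusted p = 0.0722).

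In menadione II the late TPI1 ratios lay below its baseline. The ratios were -0.996 at 63, -1.40 at 77 and -0.98 at 85 min, after -0.19 at 56 min, and -1.02, -0.50, -1.09 and -1.33 after 90 min, against -0.16, 0.41, -0.03 and -0.44 in the first 21 min. The late arrays all lay below the baseline, but neither change passed (-0.84 and -0.93, limma adjusted p = 0.16 and 0.137). In the first series TPI1 had changes of 0.50 and 0.31 at 51 to 90 and after 90 min of peroxide I and -0.05 and -0.58 in menadione I, none called.

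The other 5 genes of upper glycolysis had changes after 90 min of 0.14 to 0.64 in peroxide II and of -0.90 to -0.08 in menadione II, none of them called. PFK1 and PFK2, the subunits of phosphofructokinase, had 0.64 and 0.19 in peroxide II and -0.90 and -0.23 in menadione II. PGI1, phosphoglucose isomerase, had 0.57 and -0.13, FBA1, the aldolase, 0.46 and -0.08, and PFK26, which makes the activator fructose 2,6-bisphosphate, 0.14 and -0.20 in the same order of courses.

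In lower glycolysis the genes called were TDH1, TDH3, GPM2 and CDC19. TDH1, the glyceraldehyde-3-phosphate dehydrogenase isozyme of stationary and stressed cells, rose in both peroxide courses at 51 to 90 min. In peroxide I it had 1.83, 0.61, 1.40, 0.92 and 1.05, against 0.18, -0.42 and 0.12 in the first 21 min, with no overlap. The rise of 1.21 ± 0.33 (SE, 5 and 3 arrays; limma adjusted p = 0.0142) was 0.95 (limma adjusted p = 0.131) with the first arrays of the repeated pairs alone and 1.46 (limma adjusted p = 0.00377) with the repeats alone. Without the array at 14 min it was 1.01 (limma adjusted p = 0.095). In peroxide II it had 2.26, 1.36, 1.60 and 2.17, against -0.18, 0.31, -4.63 and -1.07 early. The windows did not overlap, and the array at 14 min stood far below all others of the course.

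TDH1 rose by 3.24 ± 0.69 in peroxide II (SE, n = 4 each; limma adjusted p = 0.00199), and by 2.16 without the array at 14 min (limma adjusted p = 0.0113). It was 1.86 with the scan day as a covariate (limma adjusted p = 0.0685) and 1.78 without the 3 arrays of the other day (limma adjusted p = 0.0309). The rise at 22 to 50 min, 2.33 (limma adjusted p = 0.0475), was 1.25 without the array at 14 min (limma adjusted p = 0.232), and did not pass without that at 21, 35, 42 or 49 min either. After 90 min of peroxide II TDH1 read 1.28, 1.28, 0.97, -0.24 and 0.06, which overlapped the baseline, with a change of 2.06 (limma adjusted p = 0.156). That change is also taken from the baseline with the low array at 14 min, and it ran from 0.60 to 2.63 over the alternatives. In the same window TDH1 had a change of 1.73 in menadione I (limma adjusted p = 0.0532), where its arrays at 1.04, 1.53, 1.23, 0.26 and 1.26 all exceeded the early -1.10, 0.17 and -1.08. In menadione II it had -0.19, 1.02, -0.18 and 0.37 after 90 min, against 0.47, 0.82, 0.05 and 0.57 early, and a change of -0.22. Against TDH3, the main isozyme, TDH1 shifted by 2.91 ± 0.67 at 51 to 90 min of peroxide II (limma adjusted p = 0.00389), and by 1.84 (limma adjusted p = 0.0689) without the 3 arrays of the other scan day.

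TDH3 was the one member called in menadione I. It rose by 1.99 ± 0.45 at 51 to 90 min (SE, 4 and 3 arrays; limma adjusted p = 0.0285) and by 2.06 ± 0.43 after 90 min (5 and 3 arrays; limma adjusted p = 0.0223). It did not pass at 51 to 90 min without the array at 0, 14, 20, 55, 70 or 85 min, nor after 90 min without that at 14, 20, 170 or 210 min, and in neither window with other edges (limma adjusted p = 0.215 and 0.104). Its ratios after 90 min were 0.83, -0.01, 1.52, 1.86 and 1.23, against -0.61, -1.04 and -1.27 early, with no overlap. The 2 probes behind these values disagreed: one changed by 0.32 and 0.15 in the 2 windows and the other by 3.66 and 3.97. TDH2, a close copy of TDH3, had changes of -0.31 and -0.45 in the same windows, so that TDH2 minus TDH3 fell by 2.30 and 2.51 (limma adjusted p = 0.0244 and 0.00989). TDH2 and TDH3 RNA may share signal on spotted arrays. TDH3 was called in no window of the other 3 courses.

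GPM2, a homologue of phosphoglycerate mutase, rose in peroxide I. It had 2.50, 1.11, 1.133, 2.00 and 0.76 at 51 to 90 min, against -0.22, 0.03 and -0.40 early, with no overlap. The rise of 1.70 ± 0.42 (SE, 5 and 3 arrays; limma adjusted p = 0.00713) was also seen against GPM1, the main mutase, by 1.59 ± 0.42 (limma adjusted p = 0.0112). GPM2 is the gene next to GPD1 on chromosome IV. In the other courses its changes at 51 to 90 min were 0.68 in peroxide II, -0.46 in menadione I and 0.32 in menadione II, none called.

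CDC19, the main pyruvate kinase of glycolysing cells, rose in peroxide II. It had 0.98, 0.81, 0.73 and 1.04 at 51 to 90 min, against -0.64, -0.51, -0.63 and -1.12 in the first 21 min. The windows were well apart. CDC19 rose by 1.62 ± 0.43 (SE, n = 4 each; limma adjusted p = 0.011), by 1.25 with the scan day as a covariate (limma adjusted p = 0.142) and by 1.47 without the 3 arrays of the other day (limma adjusted p = 0.0777). After 90 min it read 0.35, 0.34, 0.77, 0.26 and 0.69, all above the baseline, with a change of 1.21 (limma adjusted p = 0.192).

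In menadione II CDC19 had -1.08, -0.62, -2.20 and 0.05 after 90 min, against -0.54, 0.80, 0.02 and 0.63 early. The windows overlapped, and the change of -1.19 did not pass (limma adjusted p = 0.123). In peroxide I the changes were -0.66 at 51 to 90 min and -0.02 after 90 min, neither of them called. The difference between the 2 peroxide courses was not tested. PYK2, the pyruvate kinase used at low glycolytic flux, shifted upward against CDC19 by 1.91 ± 0.48 at 51 to 90 min of peroxide I (limma adjusted p = 0.00748) and was called in no other course. At 51 to 90 min its shift was -0.33 in peroxide II, 1.95 in menadione I (limma adjusted p = 0.0546) and 1.41 in menadione II, and it was -1.49 and -0.67 in the other windows of peroxide II. PYK2 itself read 1.74, 1.62, 0.91 and 0.39 at 51 to 90 min of peroxide II, against -0.19, 0.52, -0.55 and -0.26 early. Its own change there was not called.

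PGK1, phosphoglycerate kinase, had changes of 0.90 at 51 to 90 min of peroxide II without overlap (limma adjusted p = 0.078) and of -0.35 in menadione II. The enolases ENO1 and ENO2, which are close in sequence, had -1.12 and -1.05 after 90 min of menadione II, without overlap but with limma adjusted p-values of 0.0537 and 0.135. In peroxide II they had 0.18 and -0.56.

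**Figure D3:**
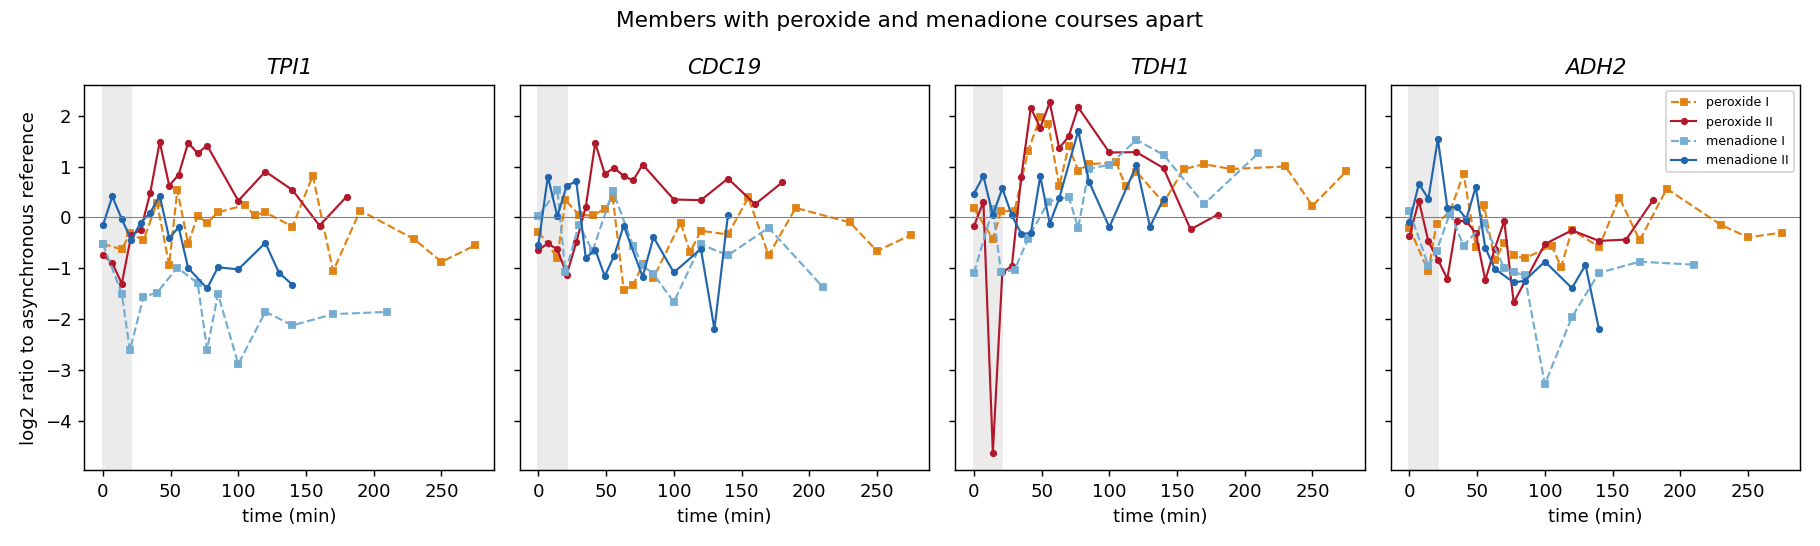
Log2 ratio to the asynchronous reference against time (min) for TPI1, CDC19, TDH1 and ADH2 in the 4 courses, peroxide in warm and menadione in cool colours; the grey band is the first 21 min. Peroxide II lies above menadione II for TPI1 and CDC19 at every shared time from 35 min on, and the TDH1 point at -4.63 is the 14 min array of peroxide II.

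Among the 9 genes of fermentation and acetate formation, ADH2, ADH4 and ALD6 were each called in 1 course. ADH2, the glucose-repressed alcohol dehydrogenase that oxidises ethanol, fell in menadione II. It read -0.60, -1.01, -1.28 and -1.25 at 56, 63, 77 and 85 min and -0.87, -1.39, -0.94 and -2.20 at 100, 120, 130 and 140 min, against -0.09, 0.66, 0.37 and 1.55 in the first 21 min. Both later windows lay entirely below the first, and the array at 21 min was the highest of the course. ADH2 fell by 1.65 ± 0.38 and by 1.97 ± 0.38 (SE, n = 4 each; limma adjusted p = 0.00972 and 0.00402), and the first of these was -0.88 (limma adjusted p = 0.331) with other window edges. In peroxide II it read -0.53, -0.25, -0.46, -0.44 and 0.34 after 90 min, against -0.37, 0.33, -0.47 and -0.83 early, with full overlap and a change of 0.07. Its change after 90 min was 0.19 in peroxide I and -1.131 in menadione I (limma adjusted p = 0.342 in menadione I), where the array at 100 min was lowest at -3.28.

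ADH1, the main fermentative alcohol dehydrogenase, was called in no course, and against it ADH2 fell by 2.54 ± 0.47 at 51 to 90 min of menadione II (SE; limma adjusted p = 0.00215) and by 1.96 ± 0.47 after 90 min (limma adjusted p = 0.0183). ADH5, a minor isozyme, fell against ADH1 by 1.86 ± 0.35 at 51 to 90 min (limma adjusted p = 0.00264). With other window edges the shifts at 51 to 90 min were -1.83 and -1.59 (limma adjusted p = 0.0828 and 0.0535). ADH1 and ADH2 are close in sequence and may share signal on spotted arrays, although they differed by a median of 0.99 and by up to 2.46 over the 16 arrays of menadione II.

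ADH4, an alcohol dehydrogenase unrelated in sequence to the others, fell in peroxide II. It read -0.35, -1.66, -0.56 and -0.53 at 51 to 90 min, against 1.67, 0.75, 0.45 and 0.70 early, with no overlap. The fall of 1.67 ± 0.44 (SE, n = 4 each; limma adjusted p = 0.0112) was -1.37 without the low array at 63 min (limma adjusted p = 0.0579) and -1.70 with the scan day as a covariate (limma adjusted p = 0.0575). The pyruvate decarboxylases PDC1, PDC5 and PDC6, which start fermentation, and ADH3, the mitochondrial alcohol dehydrogenase, were called in no window of any course. On the arrays of menadione I the 2 probes of PDC6 moved in opposite directions, by 1.16 and -1.18 at 51 to 90 min.

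ALD6, the cytosolic acetaldehyde dehydrogenase that yields NADPH with acetate, fell in peroxide I. In peroxide I it read -2.51, -1.74, -2.56, -2.18 and -2.80 at 55 to 85 min, against 0.95, 0.51 and 0.74 in the first 21 min. It stayed low until 170 min and was between -1.07 and -0.27 at 190 to 275 min. ALD6 fell by 3.09 ± 0.60 (SE, 5 and 3 arrays; limma adjusted p = 0.00101), an 8.53-fold lower ratio, in every alternative tried. Its change after 90 min was -2.22 (limma adjusted p = 0.106), with the lowest, median and highest array at -3.15, -1.57 and -0.27 and no overlap with the baseline. In peroxide II it had 0.34, 2.31, 1.09 and 0.28 at 51 to 90 min, against 0.04, 1.23, 2.34 and -0.19 early, and a change of 0.15. In menadione I the change at 51 to 90 min was 0.86 and in menadione II -0.39, neither called.

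GPD1, the glycerol-3-phosphate dehydrogenase induced by osmotic and other stress, rose in both peroxide courses. In peroxide I it had 0.97, 3.64 and 3.36 at 30, 40 and 49 min and 3.82, 1.35, 2.43, 2.84 and 2.15 at 55 to 85 min, against 0.53, -1.73 and -0.02 in the first 21 min. Every later array in these windows exceeded the baseline. GPD1 rose by 3.06 ± 0.66 at 22 to 50 min (SE, n = 3 each; limma adjusted p = 0.0287) and by 2.92 ± 0.59 at 51 to 90 min (SE, 5 and 3 arrays; limma adjusted p = 0.00148). The earlier rise was 2.13 with other window edges (limma adjusted p = 0.543), and it did not pass without the array at 14, 20, 40 or 49 min. In peroxide II it had 3.26, 2.71, 3.17 and 2.90 at 51 to 90 min, against 2.21, 1.39, -0.30 and 0.16 early, with no overlap.

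The rise of GPD1 in peroxide II was 2.14 ± 0.60 (SE, n = 4 each; limma adjusted p = 0.0154). It was 1.21 without the 3 arrays of the other scan day (limma adjusted p = 0.245) and 1.05 with the scan day as a covariate (limma adjusted p = 0.316). The lowest baseline arrays were those at 14 and 21 min, both of the other scan day, and without either the rise did not pass (1.75 and 1.91). GPD2, the isozyme tied to redox balance, was called in no window. GPD1 minus GPD2 shifted by 3.48 ± 0.51 at 51 to 90 min of peroxide I (limma adjusted p = 0.000107), with later arrays between 1.63 and 2.98 against -1.54 to 0.05 early. In peroxide II it shifted by 2.02 ± 0.58 at 22 to 50 min (limma adjusted p = 0.0429) and by 2.23 ± 0.58 at 51 to 90 min (limma adjusted p = 0.0095), and by 1.72 and 1.51 without the 3 arrays of the other scan day (limma adjusted p = 0.141 and 0.181). The first of these shifts was 1.129 with other window edges (limma adjusted p = 0.476), and it did not pass without the array at 7, 14, 21, 42 or 49 min. In menadione I the shift at 51 to 90 min was 3.85, with a limma adjusted p of 0.101, and in menadione II the shift was 0.81. After 90 min of menadione II GPD1 itself read 1.96, 1.77, 1.93 and 2.32, against 2.71, 0.89, 0.52 and -0.13 early. The array at 0 min was above all late ones, and the change of 0.995 was not called.

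FBP1, the fructose-1,6-bisphosphatase of gluconeogenesis, fell at 51 to 90 min of peroxide II by the test, on few arrays. Only the arrays at 70 and 77 min held a value, -3.37 and -1.89, against 0.46 and -0.07 at 0 and 7 min, and the change was -2.82 ± 0.72 (SE, n = 2 each; limma adjusted p = 0.0106). With other window edges it was -1.61 (limma adjusted p = 0.208). Leaving out any of these arrays leaves too few for a fit. PCK1, phosphoenolpyruvate carboxykinase, was called in no window, and its array at 70 min of peroxide II, at -2.78, was also the lowest of that course. After 90 min PCK1 read 0.30, 0.38, 0.25, 0.25 and 0.28, against -0.25, 0.09, -0.20 and -1.46 early, with no overlap and a change of 0.75 that was not called.

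Over the 16 gene pairs set against each other on the same arrays, 5 differences changed at 51 to 90 min of peroxide I, 3 of peroxide II, 2 of menadione I and 3 of menadione II. After 90 min, 1 did in the first peroxide course, 0 in the second, 1 in menadione I and 2 in menadione II. Of all genes, limma called 15.3%, 14.0%, 1.91% and 5.04% at 51 to 90 min, in the same order of courses. After 90 min these shares were 0.108%, 0.634%, 1.31% and 2.89%. They are shares of single genes, and no share was taken over other gene pairs. Several of the 16 pairs also have a gene in common. Beside the pairs given above, HXT7 minus HXT1 shifted by 1.94 ± 0.61 at 51 to 90 min of peroxide I (limma adjusted p = 0.0324), and did not pass without the array at 0, 14, 20, 55, 77 or 85 min. Without the array at 20 min GPM2 minus GPM1 and PYK2 minus CDC19 did not pass either, at 1.30 and 1.45. TDH2 minus TDH3 lost its call at 51 to 90 min of menadione I without any 1 array and after 90 min without that at 14 min, and ADH2 minus ADH1 lost it after 90 min of menadione II without that at 21, 120 or 140 min. The pairs GLK1 with HXK2, ENO1 with ENO2, PDC5 and PDC6 with PDC1, HXT5 with HXT3, PFK1 with PFK2 and FBP1 with PFK1 were called in no window of any course.

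**Figure D4:**
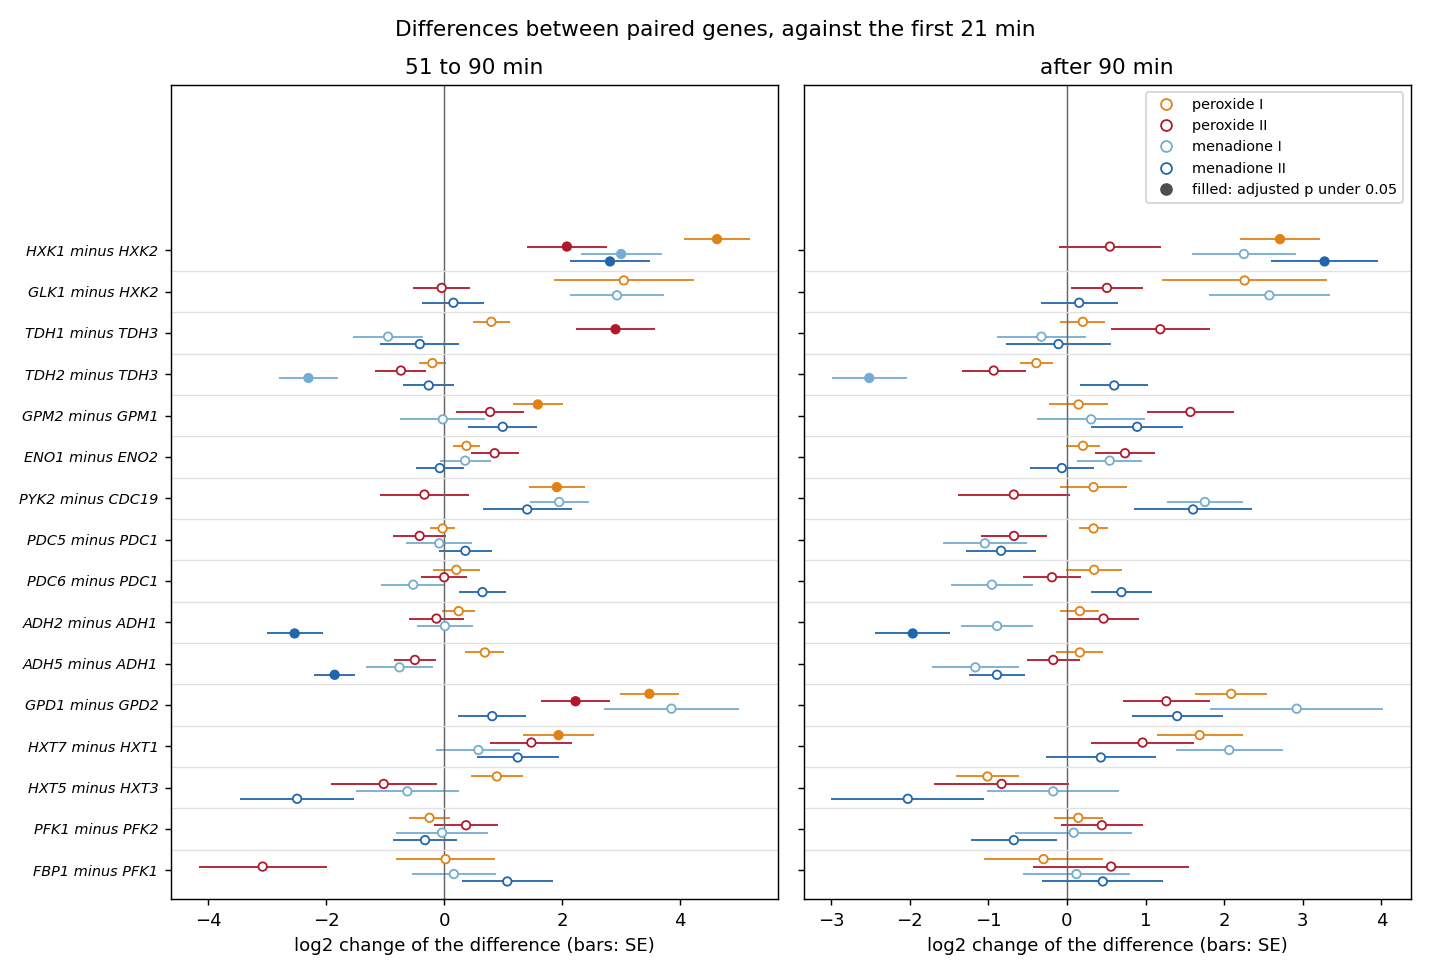
Change of the log2 difference between paired genes at 51 to 90 min (left) and after 90 min (right) against the first 21 min, with SE bars, in the 4 courses; filled points passed at a limma adjusted p under 0.05. HXK1 minus HXK2 is filled in all 4 courses at 51 to 90 min, at 2.08 to 4.63, and GPD1 minus GPD2 in both peroxide courses.

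The agents were compared directly in the second series, where array design and strain were the same, as the change in peroxide II minus the change in menadione II. The window after 90 min held 100 to 180 min in peroxide II and 100 to 140 min in menadione II. The menadione II arrays were all scanned on a day of their own that no peroxide II array shared, so that agent, culture and scan day cannot be told apart. After 90 min 3 of 39 members differed, all with the higher change in peroxide II, against 1.09% of all genes (0.906% up, 0.181% down). At 51 to 90 min 1 member differed against 0.145% of all genes (0.109% up, 0.0363% down), and at 22 to 50 min none did, as for all genes (0.0%), with an unadjusted p under 0.05 for 7 members beside 590 of 5500 genes. The median difference of the members after 90 min was 0.37, with 25 of 39 above 0, beside 0.06 over all genes.

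TPI1 differed by 2.90 ± 0.48 at 51 to 90 min (SE; limma adjusted p = 0.00602) and by 2.15 ± 0.47 after 90 min (limma adjusted p = 0.0291). CDC19 differed by 2.40 ± 0.59 after 90 min (limma adjusted p = 0.0413), a 5.28-fold gap, and had a difference of 2.46 at 51 to 90 min with a limma adjusted p of 0.0503. ADH2 differed by 2.04 ± 0.53 after 90 min (limma adjusted p = 0.0495). For TPI1 and CDC19 the peroxide II change was positive and the menadione II change negative, while for ADH2 the gap came from the fall in menadione II.

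After 90 min, leaving out single arrays ended the call of ADH2 in 15 of 17 cases, with changes of 1.73 to 2.20, that of CDC19 in 14 of 17, with 1.99 to 2.51, and that of TPI1 in 2, without the peroxide II array at 140 min or the menadione II array at 7 min (limma adjusted p = 0.0537 and 0.0523).

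The scan day covariate marked only the 3 peroxide II arrays of the other scan day. It did not adjust for the separate scan day of menadione II. After 90 min the limma adjusted p-values for TPI1, CDC19 and ADH2 were 0.0821, 0.125 and 0.161 with the scan day as a covariate, and those of CDC19 and ADH2 were 0.158 and 0.254 with other window edges. Using only times present in both courses, with time as a replicate block, they were 0.138, 0.276 and 0.198, and that of TPI1 at 51 to 90 min was 0.123. The differences themselves kept their sign. Over all 26 alternatives they lay between 1.91 and 2.51 for TPI1, between 1.99 and 2.75 for CDC19 and between 1.55 and 2.39 for ADH2. These alternatives include leaving out single arrays. HXK1 and HXT4 had differences after 90 min of -2.74 and -2.07 (limma adjusted p = 0.0852 and 0.0858), the 2 largest in the other direction.

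The first series gives the same genes side by side with no test, because its courses used different array designs. After 90 min TPI1 had a change of 0.31 in peroxide I and -0.58 in menadione I, CDC19 -0.02 and -0.73, and ADH2 0.19 and -1.131. HXK1 had 2.36 and 1.18 and HXT4 0.49 and 1.19. At 51 to 90 min the CDC19 change in peroxide I was -0.66. In menadione I CDC19 read 0.52, -0.56, -0.94 and -1.12 at 51 to 90 min, against 0.02, 0.54 and -1.08 early. The TPI1 changes of that window are given above. No pair of isozymes differed between the agents in the second series, with a smallest limma adjusted p of 0.0531 after 90 min, for ADH2 minus ADH1. In that window the unadjusted limma p was under 0.05 for 4 of 16 pairs, beside 813 of 5519 genes.

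**Figure D5:**
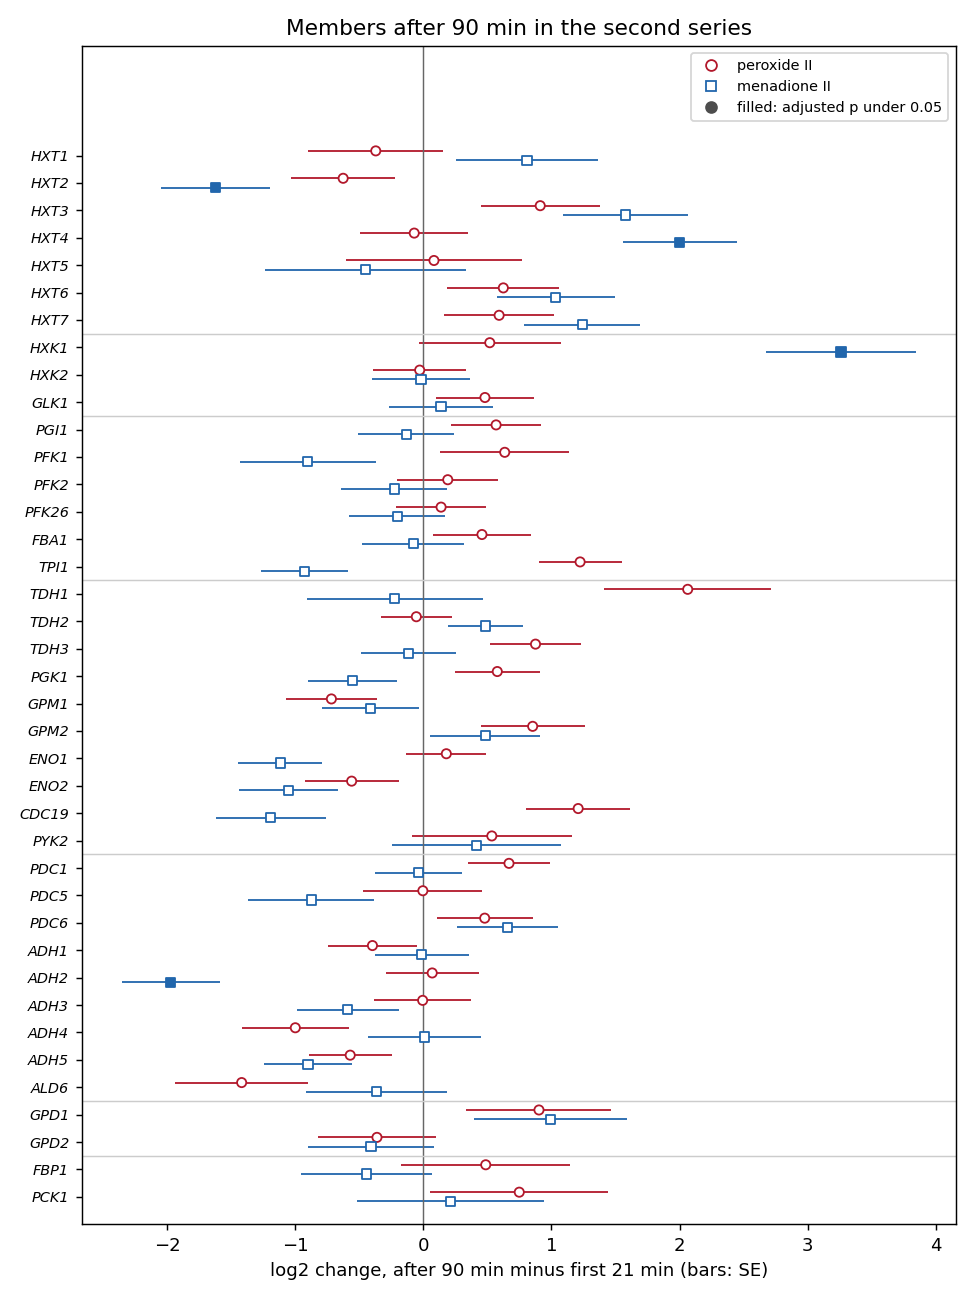
Log2 change after 90 min against the first 21 min with SE bars for the 39 members, peroxide II (circles) above menadione II (squares) in each row; filled symbols passed at a limma adjusted p under 0.05. The filled symbols are HXT2, HXT4, HXK1 and ADH2 of menadione II, and TPI1, CDC19 and TDH1 lie to the right in peroxide II, at 1.22, 1.21 and 2.06.

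Of 49 other genes of these pathways, listed with earlier results known, 4 rose and 1 fell at 51 to 90 min of peroxide I against 15.3% of all genes called, and 7 rose and 1 fell in peroxide II against 14.0%. In that window 2 rose in menadione I against 1.91% and 2 in menadione II against 5.04%, so that the counts lay near the shares of all genes. ADH6, an NADPH-dependent alcohol dehydrogenase, rose in peroxide II by 1.95 ± 0.45 (SE; limma adjusted p = 0.00431), in menadione I by 2.60 ± 0.48 (limma adjusted p = 0.0097) and in menadione II by 1.92 ± 0.45 (limma adjusted p = 0.0105). EMI2, a relative of the glucokinase gene, rose by 2.05, 1.81 and 2.22 in peroxide I, peroxide II and menadione I (limma adjusted p = 0.00559, 0.0191 and 0.0302). SFA1, the glutathione-dependent formaldehyde dehydrogenase, rose by 1.54 in peroxide II (limma adjusted p = 0.0029) and by 1.28 after 90 min of menadione II (limma adjusted p = 0.0348).

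The acetaldehyde dehydrogenase genes ALD2, ALD3 and ALD4 rose by 2.76, 1.43 and 1.51 at 51 to 90 min of peroxide I (limma adjusted p = 0.00177, 0.00476 and 0.0163), in the window in which ALD6 fell. GPP1, a glycerol-3-phosphatase, fell by 2.00 there (limma adjusted p = 0.00245), in the window in which GPD1 rose. Of the 6 acetaldehyde and acetate genes among the 49, 1 rose at 51 to 90 min of peroxide II and none was called in either menadione course. In peroxide II ICL1, the isocitrate lyase of the glyoxylate cycle, rose by 2.29, GUT2, the mitochondrial glycerol-3-phosphate dehydrogenase, by 1.92, and PYC1, a pyruvate carboxylase, by 1.51 (limma adjusted p = 0.0196, 0.00652 and 0.00606), while HXT8, a member of the transporter family, fell by 1.78 (limma adjusted p = 0.00715). PFK27, the other kinase that makes fructose 2,6-bisphosphate, rose by 1.65 in menadione II (limma adjusted p = 0.0312). None of the 49 differed between peroxide II and menadione II in the limma test, with an unadjusted p under 0.05 for 6, 9 and 8 of them in the 3 windows, beside 590 of 5500, 815 of 5517 and 813 of 5519 genes.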

How the data were processed

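Expression was measured on 70 two-colour arrays in 4 courses held in 3 deposited tables. The authors deposited log ratios per spot, taken here as log2 with Cy5 over Cy3, with dyes and times per the labels; log base, spot filter and normalisation are not given in the sources used here. Probes were named through the platform annotation, averaged per gene and centred on each array's gene median. Genes needed values on 75% of arrays and on 2 arrays in each window. Windows (up to 21, 22 to 50, 51 to 90 and after 90 min) were compared in limma 3.58.1 under R 4.3.3, each first-series course fitted alone and the second series in 1 fit, with Benjamini-Hochberg adjustment over all genes (gene pairs fitted among them). The limma code was tested on simulated data for the second series, with errors drawn independently for each array. That does not test the use of time points of 1 culture as replicates. Alternatives changed probe averaging, centring, scaling, filter, window edges, arrays fitted, scan day, repeated arrays and the replicate block, and left out single arrays. Members, lists and the naming rule were chosen with earlier results of these data known: every member could be named, with array values for those of the largest late second-series change in each role, for pairs called in the second series and, added after values were seen, for other called members; other pathway genes called in the second series were named up to 8, and ALD2, ALD3, ALD4 and GPP1 after their values were seen. The number of arrays limits precision.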

Additional observations from a re-analysis of the deposited data

Results flagged for a closer look

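ADH4 at 63 min of peroxide II, at -1.659 (log2 ratio), stood apart from the other 3 arrays of its window, which lay between -0.555 and -0.351. The median over the members at 100 min of menadione I, at -0.214, stood apart from the other 4 late arrays, between 0.019 and 0.099. Of 37 such tests for a distant array 2 were positive, and chance alone gives about 5% in each.

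The change in peroxide II minus that in menadione II differed from 0 in limma for TPI1, by 2.905 at 51 to 90 min and 2.153 after 90 min, for CDC19 by 2.4 after 90 min and for ADH2 by 2.041 after 90 min.

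Against the means of the first 21 min, HXT1 and ALD6 lay on opposite sides in every array of the first series at 51 to 90 min. HXT1 changed by -1.186 in peroxide I and 0.699 in menadione I, and ALD6 by -3.092 in peroxide I and 0.861 in menadione I. In menadione I the arrays of both genes overlapped the early ones, and neither change was called. ALD6 read 1.67, 2.45, 1.59 and 2.40 there, against 1.93, 1.76 and -0.18 early. These differences were not tested, since the courses used different array designs.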

How the results depend on the processing

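No called member or pair changed sign in any alternative. Of 31 called member results 8 passed in every alternative, among them HXK1, GPD1, GPM2 and ALD6 at 51 to 90 min of peroxide I, TPI1 in peroxide II and HXK1 in menadione II, and of 18 called pair results 3 did. The causes of the other changes were not tested. Members called at 22 to 50, 51 to 90 and after 90 min were as follows. In peroxide I, 1 became 0 at 22 to 50 min with scaled arrays, other window edges or only the arrays compared, and 0 became 2 with scaling and 1 with only the arrays compared after 90 min. In peroxide II, 2 became 1 uncentred, scaled, with the scan day or without its 3 arrays, and 0 with other edges or only the arrays compared; 7 became 2 with the scan day; 0 became 1 uncentred and 2 scaled after 90 min. In menadione I, 1 became 2 with the median over probes and 0 with other edges at 51 to 90 min, and 2 uncentred and 0 with other edges or only the arrays compared after 90 min. In menadione II, 0 became 1 without the 3 arrays at 22 to 50 min, 4 became 2 with other edges or only the arrays compared at 51 to 90 min, and 4 became 1 with only the arrays compared after 90 min. For peroxide II minus menadione II, 1 became 2 scaled and 0 with the replicate block at 51 to 90 min, and 3 became 1 with other edges or without the 3 arrays and 0 with the scan day or the replicate block after 90 min. With only the arrays of the windows compared in the fit, HXT2, HXT4 and ADH2 after 90 min of menadione II also missed the threshold, with unchanged values. Same-time pairing of the courses rests on the labelled time alone.

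Pairs called in peroxide I were 5, or 3 scaled, at 51 to 90 min and 1, or 2 uncentred, scaled or with only the arrays compared and 0 with other edges, after 90 min. In peroxide II 1 became 0 scaled, with other edges, only the arrays compared, the scan day or without its 3 arrays, and 3 became 0 with the scan day or without its 3 arrays. In menadione I 2 became 0 with other edges and 4 with only the arrays compared, and 1 became 2 with only the arrays compared. In menadione II 3 became 0 with other edges and 2 became 1 with only the arrays compared. For the difference after 90 min 0 became 1 uncentred. Leaving out single arrays gave 0 to 6, 5 to 8 and 0 members in the 3 windows of peroxide I, 0 to 4, 6 to 7 and 0 to 1 in peroxide II, 0, 0 to 1 and 0 to 2 in menadione I, 0 to 1, 3 to 5 and 3 to 5 in menadione II, and 0 to 1, 1 to 2 and 0 to 4 for the difference. For pairs the ranges were 0 to 4, 2 to 5 and 0 to 2 in peroxide I, 0 to 2, 2 to 3 and 0 in peroxide II, 0, 0 to 1 and 0 to 2 in menadione I, 0, 2 to 4 and 1 to 2 in menadione II, and 0, 0 and 0 to 1 for the difference.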
